A study of Mus musculus with 8 samples.

Results

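Mouse embryonic stem cells that lack Dgcr8 were transfected with siRNAs against Mbnl1 and Mbnl2, and their RNA was compared with that of Dgcr8 KO cells without the siRNAs. The siMbnl1/2 cells carried the Dgcr8 KO genotype and received 50 nM siRNA 16 hours after plating, with 2 libraries. The Dgcr8 KO cells carried the same genotype, are labelled as control and stand in the deposited table as mock, also with 2 libraries. All 4 libraries thus share the loss of Dgcr8, and the difference that the labels give between the groups is the siRNA transfection. No non-targeting siRNA is described in the labels, so an effect of the 2 target genes and an effect of siRNA transfection itself cannot be told apart. The labels give the V6.5 line and the 129/C57BL/6 strain for every sample, serum and LIF medium, and growth on gelatin or on fibroblast feeders without saying which. The Dgcr8 KO columns of the deposited table are headed ES1-mock and the WT columns V65-mock, so a parental line shared by Dgcr8 KO and WT cells is not established, which bears on every WT level below. The genes described are those with a mean of at least 1 FPKM (fragments scaled by transcript length and by the library's total) over these 4 libraries, which were 12770 of 49641 entries. The 4 libraries come from a series of 8 that also holds Dgcr8 KO cells given miR-294 and wild-type (WT) cells, with 2 libraries each. The labels do not say that the libraries of a group came from separate cultures, so the p-values measure the spread between these libraries, which may be technical.

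Mbnl1 and Mbnl2 encode muscleblind-like proteins, zinc finger proteins that bind RNA at YGC-containing sites and switch alternative exons and polyadenylation sites during differentiation. They are known for holding back exons that belong to the pluripotent splicing programme of embryonic stem cells. Dgcr8 binds primary microRNAs for cutting by Drosha, so that cells without it lack nearly all canonical microRNAs, including the miR-294 family of embryonic stem cells. The deposited values are sums per gene, which show transcript levels and hold no exon inclusion.

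The libraries carried the marks of embryonic stem cells. All 10 marker genes of that cell type (Pou5f1, Nanog, Sox2 and others) stood at 35.9 FPKM or more in every one of the 4 libraries. Of 15 fibroblast markers, 9 stayed under 0.25 FPKM in all 4 libraries and Postn was listed at 0, while the summed level was 9.82 and 13.4 FPKM in siMbnl1/2 cells, against 9.28 and 8.24 FPKM in Dgcr8 KO cells. Absolute depth is unknown. The ratio of values at genes under 0.05 FPKM gave the siMbnl1/2 libraries 1.00 and 1.12 times, and Dgcr8 KO replicate 1 1.03 times, the depth of Dgcr8 KO replicate 2. The spread between replicates was uneven: the median SD per gene, on the log2(FPKM + 1) scale, was 0.122 in siMbnl1/2 cells, 0.0484 in miR-294 cells, 0.0459 in WT cells and 0.103 in Dgcr8 KO cells.

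Of the siRNA targets, Mbnl2 fell and Mbnl1 did not pass the test. Mbnl2 (chr14:120275669-120431697, mm10) had 11.2 and 14.3 FPKM in siMbnl1/2 cells, against 24.7 and 28.6 FPKM in Dgcr8 KO cells. The groups did not overlap, and Mbnl2 fell by 1.01 ± 0.124 (SE) on the log2(FPKM + 1) scale (limma, adjusted p = 0.0191), a ratio of means of 0.479. Mbnl1, the second target, had 6.84 and 6.76 FPKM in siMbnl1/2 cells, against 8.002 and 9.42 FPKM in Dgcr8 KO cells. Both siMbnl1/2 libraries were under both Dgcr8 KO libraries, and the difference of -0.31 ± 0.0998 missed the threshold (adjusted p = 0.155). Their paralog Mbnl3 was under the limit for testing, at 0.644 and 0.628 FPKM in siMbnl1/2 cells and 0.856 and 1.15 FPKM in Dgcr8 KO cells.

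Dgcr8 itself did not separate the groups. Its level was 7.90 and 6.58 FPKM in siMbnl1/2 cells, against 7.89 and 8.50 FPKM in Dgcr8 KO cells, with 22.9 and 21.9 FPKM in WT cells. The remaining reads in the KO libraries give the gene a level without telling which exons they came from. Mbnl2 stood at 13.2 and 14.4 FPKM in the miR-294 cells and at 12.8 and 12.9 FPKM in WT cells, so that its level in siMbnl1/2 cells lay in the range of these 4 libraries or next to it. Mbnl1 was at 5.17 and 4.92 FPKM in miR-294 cells and at 4.80 and 5.12 FPKM in WT cells, below both siMbnl1/2 libraries. The Mbnl2 call was lost in limma without Dgcr8 KO replicate 2 (adjusted p = 0.118) and without any single miR-294 or WT library, and in a fit that weights the libraries by the spread of their group (adjusted p = 0.0566).

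**Figure D1:**
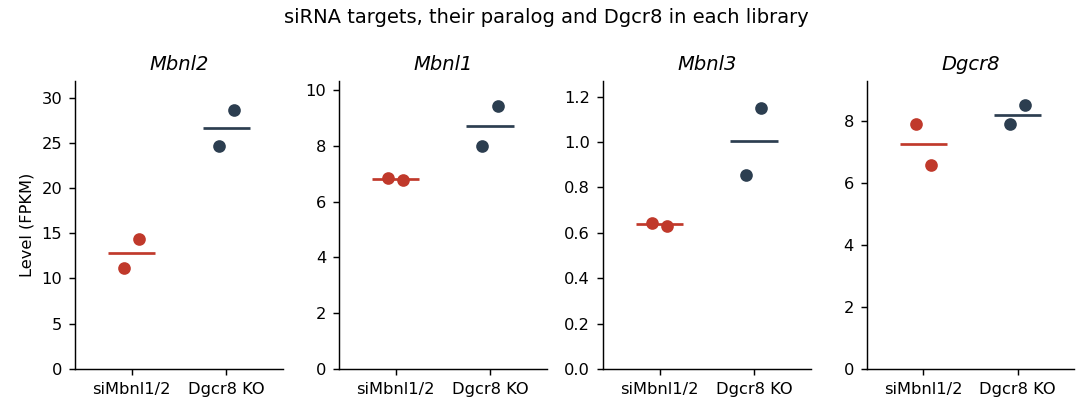
Level in FPKM of Mbnl2, Mbnl1, Mbnl3 and Dgcr8 in each siMbnl1/2 library (red) and each Dgcr8 KO library (dark), with a line at the mean of the 2 libraries; each panel has its own axis from 0. Mbnl2 sat at 11.2 and 14.3 FPKM in siMbnl1/2 cells and at 24.7 and 28.6 FPKM in Dgcr8 KO cells, and Mbnl1 differed less.

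Across all genes tested, 152 passed an adjusted p of 0.05 in limma (1.19%). Of these, 120 were higher in siMbnl1/2 cells (0.94%) and 32 were lower (0.251%), and 27 differed by at least 1 on the log2(FPKM + 1) scale, 23 of them higher and 4 lower. The median size of the difference, without its sign, was 0.73 among called genes and 0.12 over all genes tested, and the median of the signed differences over all genes tested was 0.04. Without a test, both siMbnl1/2 libraries were above both Dgcr8 KO libraries at 3206 genes (25.1%) and below both at 1752 genes (13.7%).

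The number of calls rests on the 8-library fit, in which the steadier miR-294 and WT libraries share in the estimate of the spread. With the 4 libraries alone limma called 4 genes, and with weights for the spread of each group it called 2. The 1 gene called in all 3 fits was Gm10351, a 125-base entry described below. Median-of-ratios scaling gave 99 higher and 78 lower, and quantile normalization 142 higher and 100 lower, so that the excess of increases depends on the scaling. Leaving out Dgcr8 KO replicate 2 left 18 calls, 6 of them among the 152, and leaving out siMbnl1/2 replicate 2 gave 683. Leaving out 1 miR-294 library or 1 WT library gave 18 to 22 calls, without siMbnl1/2 replicate 1 there were 238, and without Dgcr8 KO replicate 1 there were 98. Of the 25 called genes that the naming rule picked, none passed in the weighted fit, where the adjusted p ranged over 0.0508 to 0.213, and no direction turned in any fit. The gene calls below carry this limit, and the values of each library are given beside them.

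**Figure D2:**
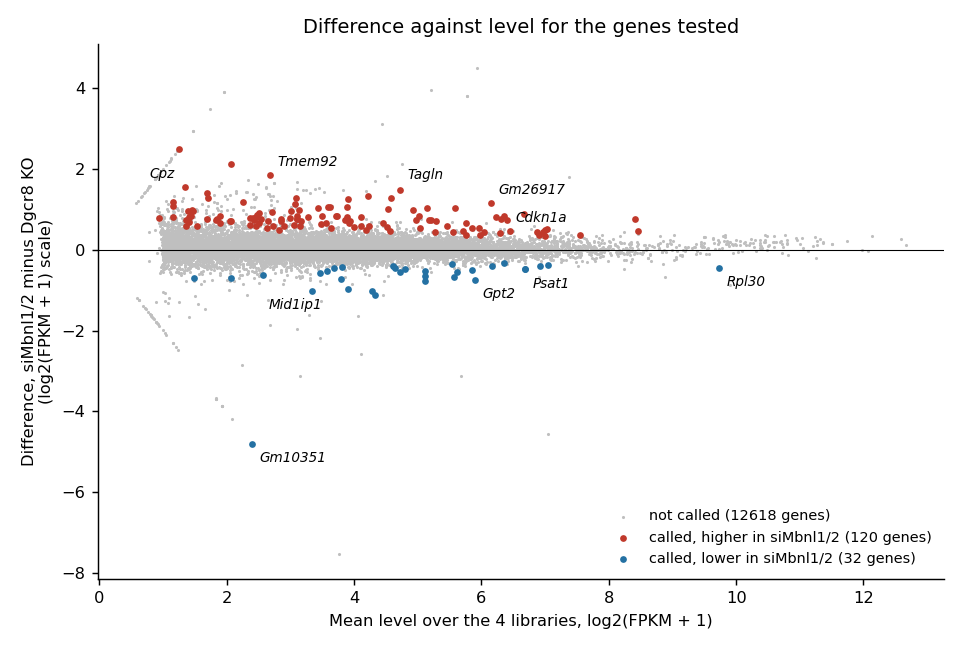
Difference between siMbnl1/2 and Dgcr8 KO cells on the log2(FPKM + 1) scale against the mean level over the 4 libraries, one point for each of the 12770 genes tested. Red points are the 120 genes called higher in siMbnl1/2 cells, blue points the 32 called lower, and grey points the genes not called, some of which lie far from 0.

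The largest called increase was at the processed pseudogene Gm42533, outside the naming rule. It had 7.14 and 2.87 FPKM in siMbnl1/2 cells and was listed at 0 in the other 6 libraries. The entry has 157 exonic bases, so a few fragments give it a high FPKM. Its call was lost without any 1 library of the Dgcr8 KO, miR-294 or WT cells. Among the 8 largest increases named by rule, Tagln, Dhtkd1 and Dcxr had the highest levels in siMbnl1/2 cells. Tagln, transgelin, an actin-binding protein of smooth muscle, had 40.3 and 46.7 FPKM in siMbnl1/2 cells, against 15.8 and 13.8 FPKM in Dgcr8 KO cells (difference 1.49 ± 0.127, adjusted p = 0.0124). Dhtkd1, a mitochondrial dehydrogenase subunit of lysine breakdown, had 35.0 and 23.3 FPKM in siMbnl1/2 cells, against 12.3 and 9.25 FPKM in Dgcr8 KO cells (1.34 ± 0.198, adjusted p = 0.0341). Dcxr, the dicarbonyl and L-xylulose reductase, had 32.8 and 40.6 FPKM in siMbnl1/2 cells, against 16.4 and 12.6 FPKM in Dgcr8 KO cells (1.29 ± 0.144, adjusted p = 0.0144). In Tagln, Dhtkd1 and Dcxr the lower siMbnl1/2 library was well above the higher Dgcr8 KO library. The miR-294 cells were transfected at the same dose and time as the siMbnl1/2 cells. In them Dhtkd1 stood at 24.1 and 23.3 FPKM, above both Dgcr8 KO libraries. Tagln stood there at 13.4 and 13.1 FPKM and Dcxr at 7.70 and 7.23 FPKM, below both Dgcr8 KO libraries.

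Others of these 8 were at lower levels. Tmem92, a transmembrane protein, had 14.9 and 8.34 FPKM in siMbnl1/2 cells, against 2.37 and 2.35 FPKM in Dgcr8 KO cells (1.86 ± 0.222, adjusted p = 0.0185). Cpz, a secreted carboxypeptidase, had 3.77 and 2.98 FPKM in siMbnl1/2 cells, against 0.552 and 0.431 FPKM in Dgcr8 KO cells (1.55 ± 0.148, adjusted p = 0.0124). Fcor, a corepressor of Foxo1, had 4.19 and 4.02 FPKM in siMbnl1/2 cells, against 0.916 and 1.27 FPKM in Dgcr8 KO cells (1.29 ± 0.16, adjusted p = 0.0198). Kdm4dl, annotated as an unprocessed pseudogene of the histone demethylase family, had 5.84 and 3.03 FPKM in siMbnl1/2 cells, against 0.978 and 0.972 FPKM in Dgcr8 KO cells (1.41 ± 0.222, adjusted p = 0.0381), and its reads may be shared with related genes. At Tmem92 and Kdm4dl the first siMbnl1/2 library was far above the second, while the Dgcr8 KO libraries nearly coincided. In miR-294 cells Tmem92 had 7.07 and 6.17 FPKM, Fcor 2.82 and 4.17 FPKM and Kdm4dl 1.56 and 1.44 FPKM. Each was above both Dgcr8 KO libraries. Cpz had 0.375 and 0.417 FPKM in miR-294 cells, below both Dgcr8 KO libraries. Whether transfection itself raised any of these genes was not tested.

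Of these 7 increases, Tagln and Cpz lost the call only without Dgcr8 KO replicate 2 (adjusted p = 0.0539 and 0.0656). Dcxr was also lost without a miR-294 library, Fcor without Dgcr8 KO replicate 1 or a WT library, and Tmem92, Kdm4dl and Dhtkd1 without any 1 library of the Dgcr8 KO, miR-294 or WT cells, with adjusted p up to 0.174. The annotation places 1349 exonic bases of Tagln opposite exons of Pcsk7 and Gm48529, and exons of Mbnl2, Dhtkd1, Mid1ip1, Napsa, Cdkn1a, Atf5, Ccnd2 and Rpl30 also lie partly opposite another gene. The libraries were made by a protocol that keeps the strand, but whether counting used it is not given in the sources used here.

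Decreases were fewer, and those named by rule were smaller than the 8 largest increases named by rule. The largest decrease of all was at Gm10351, a short entry outside the rule. Serpinf1, pigment epithelium-derived factor, a secreted serpin, had 11.7 and 13.5 FPKM in siMbnl1/2 cells, against 30.6 and 26.5 FPKM in Dgcr8 KO cells. It fell by 1.12 ± 0.103 on the log2(FPKM + 1) scale (limma, adjusted p = 0.0124), the largest decrease among the genes named by rule. Mid1ip1, an activator of fatty acid synthesis through acetyl-CoA carboxylase, had 5.78 and 6.55 FPKM in siMbnl1/2 cells, against 13.8 and 13.1 FPKM in Dgcr8 KO cells (-1.01 ± 0.109, adjusted p = 0.0144). Srxn1, sulfiredoxin, which restores oxidised peroxiredoxins, had 24.4 and 27.0 FPKM in siMbnl1/2 cells, against 44.9 and 43.5 FPKM in Dgcr8 KO cells (-0.76 ± 0.0775, adjusted p = 0.0124). The 2 groups stood clear of each other at all 3 genes.

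Gpt2, the mitochondrial alanine transaminase, had 41.3 and 49.4 FPKM in siMbnl1/2 cells, against 80.5 and 72.6 FPKM in Dgcr8 KO cells (-0.75 ± 0.106, adjusted p = 0.0314). Inhbb, the activin beta B subunit, had 9.43 and 10.1 FPKM in siMbnl1/2 cells, against 17.4 and 16.4 FPKM in Dgcr8 KO cells (-0.73 ± 0.0762, adjusted p = 0.013). At both genes the libraries of a group lay close together and the groups did not overlap. Napsa, an aspartic protease, had 2.25 and 2.31 FPKM in siMbnl1/2 cells, against 4.43 and 4.19 FPKM in Dgcr8 KO cells (-0.69 ± 0.0945, adjusted p = 0.0265). Fgf17, a fibroblast growth factor, had 1.43 and 1.02 FPKM in siMbnl1/2 cells, against 2.82 and 2.35 FPKM in Dgcr8 KO cells (-0.69 ± 0.12, adjusted p = 0.048), the weakest of these calls. Serpinf1 kept its call without each of the 8 libraries in turn, with adjusted p up to 0.0461. The others lost theirs without Dgcr8 KO replicate 2, and Gpt2, Napsa and Fgf17 without replicate 1 too, and without at least 1 miR-294 library, and all but Mid1ip1 and Srxn1 without a WT library too, with adjusted p up to 0.135.

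Only 6 genes kept their call when each of the 8 libraries was left out in turn: Serpinf1, Sdc4, Grb10, Ass1, Gm26917 and Gm10351. These 6 were chosen after their values were seen. Sdc4, syndecan-4, a heparan sulfate proteoglycan of focal adhesions, had 134 and 142 FPKM in siMbnl1/2 cells, against 76.4 and 71.8 FPKM in Dgcr8 KO cells (0.89 ± 0.0665, limma adjusted p = 0.011), and it also passed in the weighted fit (adjusted p = 0.0429). Ass1, argininosuccinate synthase of the arginine pathway, had 97.3 and 99.7 FPKM in siMbnl1/2 cells, against 58.9 and 52.5 FPKM in Dgcr8 KO cells (0.81 ± 0.0703, adjusted p = 0.0124). Grb10, an imprinted adaptor that restrains insulin signalling, had 27.1 and 26.7 FPKM in siMbnl1/2 cells, against 42.0 and 43.1 FPKM in Dgcr8 KO cells (-0.64 ± 0.0575, adjusted p = 0.0124). At these 3 genes the replicates of each group lay close together and the groups did not overlap. Ass1 stood at 91.1 and 88.8 FPKM in miR-294 cells and at 119 and 116 FPKM in WT cells, above both Dgcr8 KO libraries. Grb10 stood at 93.1 and 95.4 FPKM in miR-294 cells and at 116.9 and 117.5 FPKM in WT cells, also above both. Sdc4 stood at 23.1 and 24.1 FPKM in miR-294 cells and at 25.9 and 25.7 FPKM in WT cells, below both.

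Gm10351 and Gm26917 are of another kind. Gm10351 (chr7:43099719-43099843, mm10), a 125-base entry that awaits experimental evidence in the annotation, was listed at 0 in both siMbnl1/2 libraries and in all 4 miR-294 and WT libraries, against 20.3 and 35.6 FPKM in Dgcr8 KO cells (limma, adjusted p = 0.000685). A few fragments give a high FPKM at an entry this short. Gm26917 (chr17:39843013-39846341, mm10) had 103 and 108 FPKM in siMbnl1/2 cells, against 52.8 and 41.0 FPKM in Dgcr8 KO cells (1.17 ± 0.116, adjusted p = 0.0124). Its neighbour Gm42418, which RefSeq lists as a synonym of the ribosomal RNA pseudogene Rn18s-rs5, had 418 and 462 FPKM in siMbnl1/2 cells, against 291 and 233 FPKM in Dgcr8 KO cells (0.75 ± 0.109, adjusted p = 0.0317). Gm26917 stood at 104.8 and 105.5 FPKM in miR-294 cells and at 73.6 and 66.3 FPKM in WT cells. Gm42418 stood at 396 and 434 FPKM in miR-294 cells and at 386 and 397 FPKM in WT cells. At both entries the Dgcr8 KO libraries were thus the lowest of the series. This sign of ribosomal RNA was higher in both siMbnl1/2 libraries than in Dgcr8 KO cells, and its part in the other results was not tested.

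**Figure D3:**
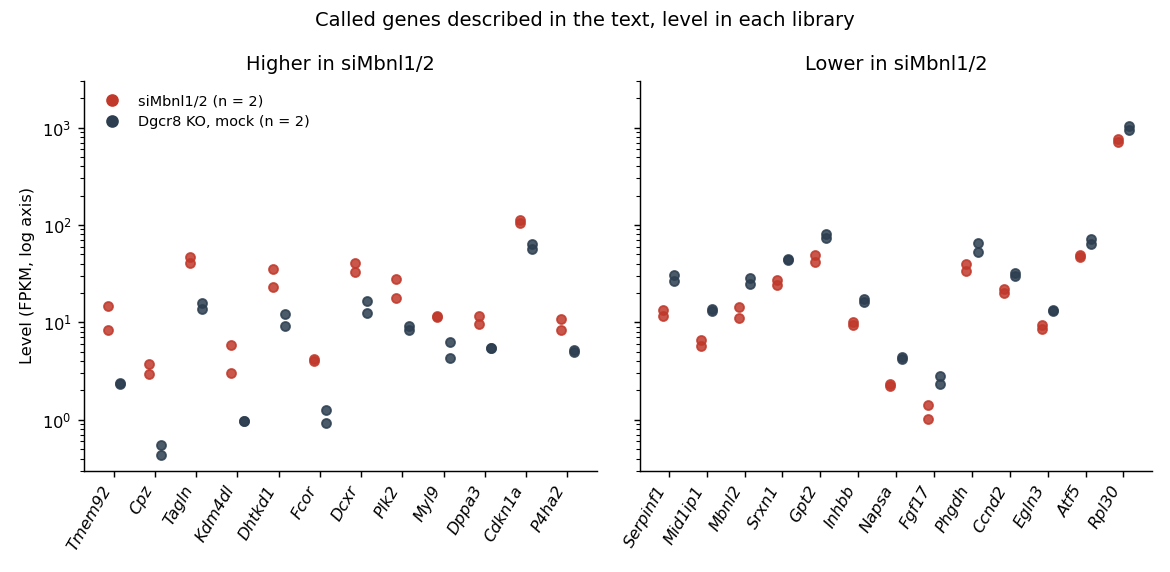
Level in FPKM, on a log axis, of the 25 called genes that the naming rule picked, in each siMbnl1/2 library (red, left of each pair) and each Dgcr8 KO library (dark, right). The left panel holds the genes called higher in siMbnl1/2 cells and the right panel those called lower; no gene shows overlap of the 2 groups.

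Actin cytoskeleton genes and targets of serum response factor (SRF) gave 3 increases. SRF binds the CArG box and, with its cofactors of the Mkl family, drives genes of contraction and actin dynamics. Of 29 list members tested, Tagln, Myl9 and Lima1 rose and none fell, while 0.94% of all genes tested were called higher. Both siMbnl1/2 libraries were above both Dgcr8 KO libraries at 14 of the 29 (48.3%, beside 25.1% for all genes tested) and below both at 2 (6.90%, beside 13.7%), and the list's median difference was 0.12, against 0.04 for all genes tested. Myl9, the regulatory myosin light chain, had 11.3 and 11.5 FPKM in siMbnl1/2 cells, against 6.32 and 4.30 FPKM in Dgcr8 KO cells (0.99 ± 0.157, limma adjusted p = 0.0386). Lima1, an actin-bundling LIM protein, had 67.8 and 70.0 FPKM in siMbnl1/2 cells, against 49.0 and 44.9 FPKM in Dgcr8 KO cells (0.54 ± 0.07, adjusted p = 0.0207). The groups stood apart at both genes, with Dgcr8 KO replicate 2 the lowest of the 4 libraries in each.

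Acta2, smooth muscle actin, had 2.16 and 4.78 FPKM in siMbnl1/2 cells, against 0.792 and 0.752 FPKM in Dgcr8 KO cells, and did not pass (adjusted p = 0.0567). It is also the fibroblast marker with the largest difference. Abundant members did not pass either: Actb had 1289 and 1128 FPKM in siMbnl1/2 cells, against 1112 and 980.0 FPKM in Dgcr8 KO cells, and the factor Srf had 10.5 and 12.7 FPKM, against 12.9 and 10.9 FPKM. Actb thus had its 2 middle libraries close together, and Srf overlapped. Lima1 and Myl9 lost the call without Dgcr8 KO replicate 2 (adjusted p = 0.109 and 0.123) and without any 1 miR-294 or WT library, and Myl9 also without siMbnl1/2 replicate 1.

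The CArG box was looked for, on both strands, in the 250 bases upstream of the RefSeq transcription start (GRCm38.p6), because it is the site this list is named for. It was upstream of 439 of 27025 genes (1.62%), and of 9 of the 23 list members with a promoter in the table. The list has 32 members, and those without a promoter there were not searched. Tagln is not among the 9, and an absent promoter and an absent box are not told apart here. The stretches below hold it in capitals in the called Myl9 and Lima1 and in 3 members that were not called, Actg1, Myl6 and Vcl. They lie at chr2:156775278-156775337 (plus strand), chr15:99820162-99820221 (minus), chr11:120348551-120348610 (minus), chr10:128493025-128493084 (minus) and chr14:20929148-20929205 (plus).
Myl9: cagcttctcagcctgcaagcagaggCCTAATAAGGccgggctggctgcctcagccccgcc
Lima1: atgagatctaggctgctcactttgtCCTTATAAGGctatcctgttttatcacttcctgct
Actg1: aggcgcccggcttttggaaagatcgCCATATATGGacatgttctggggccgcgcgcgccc
Myl6: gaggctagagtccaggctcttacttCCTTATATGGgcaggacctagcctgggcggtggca
Vcl: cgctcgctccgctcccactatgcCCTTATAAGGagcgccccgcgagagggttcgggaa
Lima1 and Vcl hold the same 10 letters. Vcl, vinculin of focal adhesions, had 27.0 and 28.9 FPKM in siMbnl1/2 cells, against 26.0 and 25.5 FPKM in Dgcr8 KO cells (0.11 ± 0.067, limma adjusted p = 0.431). Actg1 had 543 and 521 FPKM in siMbnl1/2 cells, against 584 and 502 FPKM in Dgcr8 KO cells, with overlap. Of the 5 members shown, 2 were called and 3 were not.

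The ATF4 response list gave 3 decreases. ATF4 is the transcription factor that raises amino acid synthesis and transport when eIF2 alpha is phosphorylated. Of 25 members tested, Phgdh, Psat1 and Atf5 fell and none rose, beside 0.251% of all genes tested called lower and 0.94% higher. Both siMbnl1/2 libraries were below both Dgcr8 KO libraries at 16 of the 25, a share of 64.0% beside 13.7% for all genes tested. They were above both at 2 (8%, beside 25.1%). The list's median difference was -0.28, and it was -0.20 to -0.32 with any 1 siMbnl1/2 or Dgcr8 KO library left out.

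The called members included neighbouring steps of serine synthesis. Phgdh, the first enzyme of the pathway, had 33.8 and 39.8 FPKM in siMbnl1/2 cells, against 65.1 and 52.8 FPKM in Dgcr8 KO cells (-0.66 ± 0.113, limma adjusted p = 0.0462). Psat1, the transaminase that follows it, had 86.1 and 86.7 FPKM in siMbnl1/2 cells, against 123 and 119 FPKM in Dgcr8 KO cells (-0.48 ± 0.0535, adjusted p = 0.0144). Psph, the last enzyme, had 39.0 and 44.4 FPKM in siMbnl1/2 cells, against 51.4 and 42.9 FPKM in Dgcr8 KO cells (adjusted p = 0.433). The first and second steps thus separated the groups and the last did not.

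Atf5, a transcription factor of the mitochondrial stress response, had 48.7 and 46.7 FPKM in siMbnl1/2 cells, against 72.5 and 63.3 FPKM in Dgcr8 KO cells (-0.50 ± 0.0788, limma adjusted p = 0.0386). Atf4 itself had 134 and 115 FPKM in siMbnl1/2 cells, against 149 and 146 FPKM in Dgcr8 KO cells, which missed the threshold (-0.24 ± 0.0772, adjusted p = 0.157). Enzymes of the folate cycle next to serine, Shmt2 (adjusted p = 0.0892) and Mthfd2 (adjusted p = 0.0606), had both siMbnl1/2 libraries below both Dgcr8 KO libraries without passing. In the miR-294 and WT libraries Phgdh was higher than in either of these groups, at 113.6 and 113.6 FPKM and at 141 and 134 FPKM. Phgdh and Atf5 kept the call in 1 of the 8 fits that left out a library, that without siMbnl1/2 replicate 2, with adjusted p up to 0.119 and 0.112. Psat1 lost it without Dgcr8 KO replicate 2 or any 1 miR-294 or WT library (up to 0.0682).

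Some members did not share this order. Asns, asparagine synthetase, had 133 and 146 FPKM in siMbnl1/2 cells, against 143 and 143 FPKM in Dgcr8 KO cells. Ppp1r15a, which reverses eIF2 alpha phosphorylation, had 13.6 and 12.7 FPKM in siMbnl1/2 cells, against 9.79 and 8.52 FPKM in Dgcr8 KO cells (adjusted p = 0.0523). Asns therefore overlapped, and Ppp1r15a had the opposite order to most of the list.

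The motif TGATGNAA, the C/EBP-ATF letters of amino acid response elements, was looked for on both strands in the same windows. It was upstream of 1056 of 27025 genes (3.91%) and of 7 of the 23 list members with a promoter in the table, Asns, Atf3, Chac1, Gars, Nupr1, Slc7a11 and Vldlr, and none of these 7 was called. Asns is shown for the motif on the gene's strand and Nupr1 and Chac1 for its reverse complement, at chr6:7693210-7693257 (minus strand), chr7:126625548-126625605 (minus) and chr2:119351024-119351081 (plus) of GRCm38.p6 in RefSeq, with the motif in capitals.
Asns: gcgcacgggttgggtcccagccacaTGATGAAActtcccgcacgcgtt
Nupr1: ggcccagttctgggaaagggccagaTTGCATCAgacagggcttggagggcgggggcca
Chac1: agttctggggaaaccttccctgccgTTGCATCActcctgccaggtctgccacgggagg
Nupr1, a small stress-induced chromatin protein, had 24.4 and 35.8 FPKM in siMbnl1/2 cells, against 45.8 and 42.0 FPKM in Dgcr8 KO cells (-0.55 ± 0.165, limma adjusted p = 0.137). Chac1, which degrades glutathione, had 6.01 and 6.79 FPKM in siMbnl1/2 cells, against 8.55 and 7.37 FPKM in Dgcr8 KO cells (adjusted p = 0.208). Both were lower in the 2 siMbnl1/2 libraries without passing.

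The p53 target list gave 3 increases. p53 activates genes of cell cycle arrest, apoptosis and repair, and Mdm2 is both its target and the ligase that removes it. Of 23 members tested, Cdkn1a, Mdm2 and Plk2 rose and none fell, beside 0.94% of all genes tested called higher and 0.251% lower. Both siMbnl1/2 libraries were above both Dgcr8 KO libraries at 18 of the 23, a share of 78.3% beside 25.1% for all genes tested. They were below both at 2 (8.70%, beside 13.7%). The list's median difference was 0.38, and 0.23 without siMbnl1/2 replicate 1.

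Cdkn1a, the p21 inhibitor of cyclin-dependent kinases (chr17:29090979-29100722, mm10), had 112 and 106 FPKM in siMbnl1/2 cells, against 64.4 and 57.1 FPKM in Dgcr8 KO cells (0.84 ± 0.0849, limma adjusted p = 0.0124). It is also a known target of the miR-294 family, and stood at 17.8 and 16.1 FPKM in miR-294 cells and at 25.9 and 24.9 FPKM in WT cells. The siMbnl1/2 libraries thus had the highest Cdkn1a level of the 8. Plk2, a polo-like kinase induced by stress, had 27.9 and 17.8 FPKM in siMbnl1/2 cells, against 8.28 and 9.11 FPKM in Dgcr8 KO cells (1.26 ± 0.179, adjusted p = 0.0311). Mdm2 had 79.4 and 70.0 FPKM in siMbnl1/2 cells, against 51.5 and 50.3 FPKM in Dgcr8 KO cells (0.54 ± 0.0822, adjusted p = 0.0367). In all 3 genes the siMbnl1/2 libraries were clear of the Dgcr8 KO libraries, with replicate 1 the higher.

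Other p53 targets had the same order without passing. Ccng1, cyclin G1, had 104 and 82.6 FPKM in siMbnl1/2 cells, against 61.5 and 67.9 FPKM in Dgcr8 KO cells (adjusted p = 0.0672), and Zmat3 had 24.9 and 23.8 FPKM, against 18.2 and 18.6 FPKM (adjusted p = 0.0512). The proapoptotic Bax had 191 and 196 FPKM in siMbnl1/2 cells, against 163 and 136 FPKM in Dgcr8 KO cells (adjusted p = 0.0814). Gadd45a had the opposite order, with 106 and 116 FPKM in siMbnl1/2 cells and 139 and 130.3 FPKM in Dgcr8 KO cells (adjusted p = 0.0906). Cdkn1a lost the call only without Dgcr8 KO replicate 2 (adjusted p = 0.0587). Plk2 and Mdm2 lost it without any 1 library of the Dgcr8 KO, miR-294 or WT cells, and Mdm2 also without siMbnl1/2 replicate 1, with adjusted p up to 0.152.

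**Figure D4:**
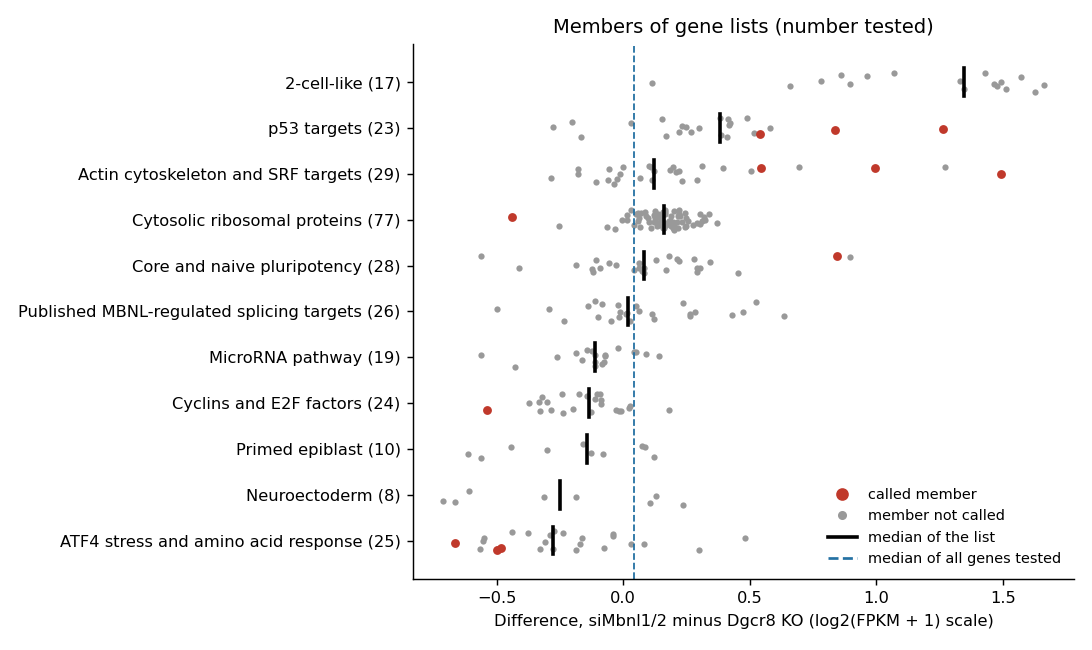
Difference between siMbnl1/2 and Dgcr8 KO cells, on the log2(FPKM + 1) scale, of each tested member of 11 gene lists (points; red where called), with the median of the list (black bar) and of all genes tested (dashed line, 0.04). The medians run from 1.35 for the 2-cell-like genes to -0.28 for the ATF4 list, and called members are few in every list.

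The list of 2-cell-like genes had the highest median of the 36 lists, and none of its genes passed the test. Embryonic stem cell cultures hold a small, changing share of cells that switch on genes of the 2-cell embryo, among them the Zscan4, Tcstv and Tdpoz clusters. Of 17 members tested, 16 had both siMbnl1/2 libraries above both Dgcr8 KO libraries (94.1%, beside 25.1% for all genes tested), and the median difference was 1.35. Zscan4d, of a telomere-linked gene cluster, had 30.2 and 10.4 FPKM in siMbnl1/2 cells, against 5.65 and 6.35 FPKM in Dgcr8 KO cells (1.43 ± 0.416, limma adjusted p = 0.146). Tcstv1 had 15.1 and 5.05 FPKM in siMbnl1/2 cells, against 2.21 and 2.19 FPKM in Dgcr8 KO cells (adjusted p = 0.0852). Arg2, mitochondrial arginase, had 6.54 and 3.09 FPKM in siMbnl1/2 cells, against 1.27 and 1.10 FPKM in Dgcr8 KO cells (1.35 ± 0.248, adjusted p = 0.0516), the lowest adjusted p of the list.

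The first siMbnl1/2 library was well above the second at nearly every member, and the second was nearer to the Dgcr8 KO libraries. The summed level of the list was 375 and 181 FPKM in siMbnl1/2 cells, against 133 and 149 FPKM in Dgcr8 KO cells. Without siMbnl1/2 replicate 1 the median difference was 0.70, and without replicate 2 it was 1.91. In bulk RNA a larger share of such cells and more RNA per cell cannot be told apart, and the 6 Zscan4 genes share sequence, so that their values are not 6 separate measurements.

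**Figure D5:**
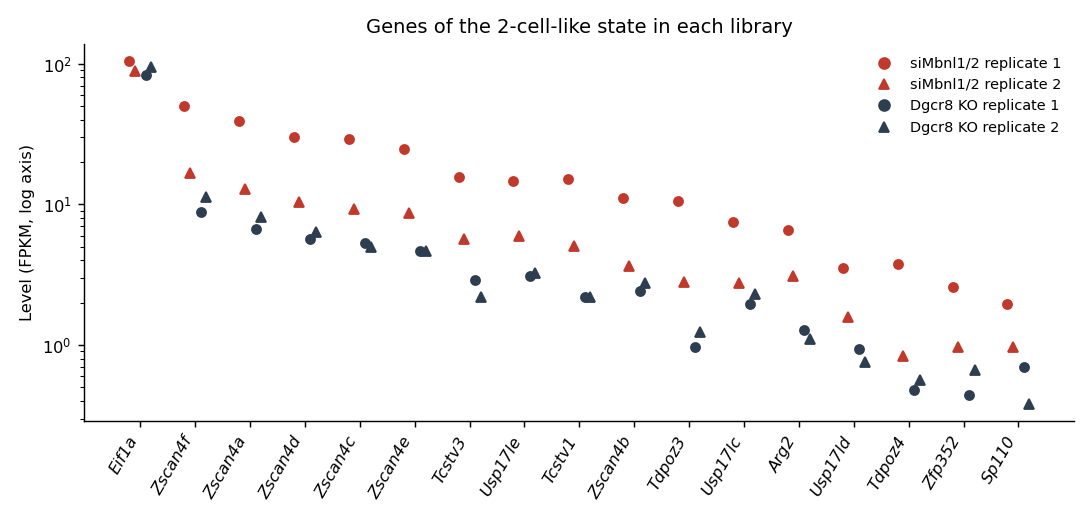
Level in FPKM, on a log axis, of the 17 tested genes of the 2-cell-like list in siMbnl1/2 replicates 1 (red circle) and 2 (red triangle) and in Dgcr8 KO replicates 1 (dark circle) and 2 (dark triangle). Apart from Eif1a, the siMbnl1/2 libraries were above the Dgcr8 KO libraries, with replicate 1 the higher in each gene.

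Pluripotency genes gave 1 increase, and the core factors Pou5f1 and Sox2 overlapped between the groups. Pou5f1 had 723 and 801 FPKM in siMbnl1/2 cells, against 799 and 685 FPKM in Dgcr8 KO cells, and Sox2 had 265 and 285 FPKM, against 267 and 294 FPKM. Of 28 pluripotency genes tested 1 rose, Dppa3, and none fell, beside 0.94% of all genes tested called higher. Both siMbnl1/2 libraries were above both Dgcr8 KO libraries at 12 of the 28 (42.9%, beside 25.1% for all genes tested) and below both at 3 (10.7%, beside 13.7%), with a list median of 0.08. Dppa3, Stella, a maternal factor that shields DNA from demethylation in the zygote, had 11.5 and 9.58 FPKM in siMbnl1/2 cells, against 5.42 and 5.42 FPKM in Dgcr8 KO cells (0.84 ± 0.102, limma adjusted p = 0.019). Fbxo15, an early target of Oct4 and Sox2, had 211 and 141 FPKM in siMbnl1/2 cells, against 93.1 and 91.1 FPKM in Dgcr8 KO cells (adjusted p = 0.0511). Dppa3 therefore passed and Fbxo15, with its more uneven replicates, did not. Dppa3 was also above both Dgcr8 KO libraries in miR-294 cells, at 9.20 and 8.60 FPKM, and in WT cells, at 8.53 and 8.19 FPKM.

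Genes of exit from the naive state gave no call. Among 10 primed epiblast genes tested, 5 had both siMbnl1/2 libraries below both Dgcr8 KO libraries and 2 above, beside 13.7% below and 25.1% above for all genes tested. The median was -0.14, which was -0.25 without siMbnl1/2 replicate 1 and -0.05 without replicate 2. Otx2, a homeobox factor of the epiblast, had 13.3 and 14.2 FPKM in siMbnl1/2 cells, against 19.103 and 18.9 FPKM in Dgcr8 KO cells (-0.44 ± 0.0868, limma adjusted p = 0.0568). Cdh2, N-cadherin, had 3.55 and 3.88 FPKM in siMbnl1/2 cells, against 5.78 and 6.16 FPKM in Dgcr8 KO cells (adjusted p = 0.0514). Among 8 neuroectoderm genes tested, 4 were below (50.0%, beside 13.7%) and 1 above (12.5%, beside 25.1%), with a median of -0.25. Pax6, a neural transcription factor, had 5.89 and 5.63 FPKM in siMbnl1/2 cells, against 9.61 and 9.81 FPKM in Dgcr8 KO cells (adjusted p = 0.06), and Sox1 had 4.58 and 5.92 FPKM, against 8.44 and 8.55 FPKM (adjusted p = 0.0552).

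Cyclins and E2F factors gave 1 decrease among 24 genes tested and no increase, beside 0.251% of all genes tested called lower. Ccnd2, cyclin D2, which carries growth signals to the kinases of the G1 phase, had 22.2 and 19.8 FPKM in siMbnl1/2 cells, against 30.0 and 31.9 FPKM in Dgcr8 KO cells (-0.54 ± 0.0801, limma adjusted p = 0.0356). At 13 of the 24 genes both siMbnl1/2 libraries were below both Dgcr8 KO libraries (54.2%, beside 13.7% for all genes tested) and at 1 above (4.17%, beside 25.1%), with a median of -0.14. Ccnd1 had 41.0 and 33.3 FPKM in siMbnl1/2 cells, against 45.2 and 46.3 FPKM in Dgcr8 KO cells, and Ccne1 had 39.2 and 36.3 FPKM, against 47.2 and 45.3 FPKM, neither passing (adjusted p = 0.157 and 0.0816). The mitotic cyclin Ccnb1 overlapped. Dppa3 and Ccnd2 lost the call without any 1 library of the Dgcr8 KO, miR-294 or WT cells, with adjusted p up to 0.109 and 0.151.

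Genes whose exons MBNL proteins are known to regulate gave no call at the level of the whole gene. None of 26 such genes tested was called, 7 had both siMbnl1/2 libraries above both Dgcr8 KO libraries (26.9%) and 4 below (15.4%), near the 25.1% and 13.7% of all genes tested. The median of 0.02 turned negative under either scaling (-0.02 and -0.01). The nearest to the threshold was Bin1, an adaptor of membrane tubules, with 5.83 and 5.57 FPKM in siMbnl1/2 cells, against 3.94 and 3.71 FPKM in Dgcr8 KO cells (0.47 ± 0.0845, limma adjusted p = 0.0511). Mapt, the tau protein, had 19.5 and 22.7 FPKM in siMbnl1/2 cells, against 15.1 and 13.6 FPKM in Dgcr8 KO cells (adjusted p = 0.0568), and Cacna1s had 1.88 and 2.13 FPKM, against 0.981 and 0.895 FPKM (adjusted p = 0.0512). These 3 were apart in both replicates, and their exon use was not measured here.

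Other splicing factors gave no call either. None of 23 tissue-type splicing regulators was called, and 3 had both siMbnl1/2 libraries above and 3 below, each 13.0% beside 25.1% above and 13.7% below for all genes tested. Celf1, which often opposes MBNL proteins at the same transcripts, had 60.4 and 57.5 FPKM in siMbnl1/2 cells, against 57.8 and 65.5 FPKM in Dgcr8 KO cells, and Rbfox2 had 28.6 and 32.5 FPKM, against 30.2 and 28.4 FPKM. Both overlapped. Of 32 SR proteins and hnRNPs none was called, with 2 above (6.25%) and 4 below (12.5%) in both replicates.

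The microRNA pathway, which lacks its Dgcr8 step in both groups, had no call among 19 genes tested, with 1 above (5.26%, beside 25.1% for all genes tested), 7 below (36.8%, beside 13.7%) and a median of -0.11. Lin28a, an RNA-binding protein that blocks let-7 maturation, had 3.57 and 2.75 FPKM in siMbnl1/2 cells, against 4.73 and 5.52 FPKM in Dgcr8 KO cells (-0.56 ± 0.111, limma adjusted p = 0.0568). Lin28b had 8.46 and 8.25 FPKM in siMbnl1/2 cells, against 10.9 and 12.3 FPKM in Dgcr8 KO cells (adjusted p = 0.0672). Among 18 known targets of embryonic stem cell microRNAs tested, Cdkn1a rose and Mbnl2, itself a target of the siRNAs, fell. Over all genes tested, 0.94% were called higher and 0.251% lower. At 8 of the 18 both siMbnl1/2 libraries were below both Dgcr8 KO libraries (44.4%, beside 13.7% for all genes tested). At 3 they were above (16.7%, beside 25.1%), and the list's median was -0.12. Irf2 had 7.93 and 6.74 FPKM in siMbnl1/2 cells, against 9.76 and 9.02 FPKM in Dgcr8 KO cells, a difference of -0.32, and its difference between miR-294 and Dgcr8 KO cells, which rests on the same Dgcr8 KO libraries, was -2.68. Lats2, a Hippo kinase, had 12.5 and 11.0 FPKM in siMbnl1/2 cells, against 10.1 and 9.38 FPKM in Dgcr8 KO cells, a difference of 0.25, beside -1.47 for miR-294 minus Dgcr8 KO.

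Ribosomal protein genes gave 1 call, a decrease. Of 77 tested none rose and 1 fell, while 54 had both siMbnl1/2 libraries above both Dgcr8 KO libraries, a share of 70.1% beside 25.1% for all genes tested. The median difference was 0.16, and 0.10 and 0.03 under median-of-ratios scaling and quantile normalization. The median over all genes tested was 0.04, and -0.01 and -0.01 under the same settings. The ribosomal median was 0.0894 without Dgcr8 KO replicate 2. Rpl30, a large-subunit protein that in yeast blocks splicing of its own transcript, had 702 and 762 FPKM in siMbnl1/2 cells, against 1039 and 949 FPKM in Dgcr8 KO cells (-0.44 ± 0.0676, limma adjusted p = 0.0367). Rps15a had 1959.9 and 2009.8 FPKM in siMbnl1/2 cells, against 1642 and 1434 FPKM in Dgcr8 KO cells (adjusted p = 0.0703).

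The difference also varied with gene length. In the shortest 2550 genes by exonic length, 30.9% had both siMbnl1/2 libraries above both Dgcr8 KO libraries, and in the longest 2549 genes 20.7%, with median differences of 0.0834 and 0.0032. The 120 genes called higher had a median exonic length of 3265.5 bases, the 32 called lower 3689.5 bases and all genes tested 4182.5 bases. Ribosomal protein genes are short, and the part of length in their difference was not tested. Rpl30 shares 616 exonic bases with D730044K07Rik on the opposite strand, and it kept its call only in the fit without siMbnl1/2 replicate 2, with adjusted p up to 0.112 without another library.

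The list of interferon genes gave no call, while Gbp2, an interferon-induced gene outside it, was called higher. Gbp2 had 11.7 and 8.90 FPKM in siMbnl1/2 cells, against 5.82 and 5.34 FPKM in Dgcr8 KO cells (0.77 ± 0.135, limma adjusted p = 0.0499). Gbp2 was chosen after its values were seen, and it did not pass in the weighted limma fit (adjusted p = 0.183). None of 28 interferon-stimulated and RNA-sensing genes tested was called, with 8 above (28.6%) and 4 below (14.3%) in both replicates, near the 25.1% and 13.7% of all genes tested, a median of 0.10 and a lowest adjusted p of 0.0813, at Zbp1. The median was 0.19 without siMbnl1/2 replicate 1, 0.01 without siMbnl1/2 replicate 2 and 0.02 without Dgcr8 KO replicate 2. Cxcl10, an interferon-induced chemokine, had 8.37 and 7.46 FPKM in siMbnl1/2 cells, against 5.04 and 2.37 FPKM in Dgcr8 KO cells (0.98 ± 0.305, limma adjusted p = 0.149). Hypoxia and glycolysis genes moved in both directions, with P4ha2 called higher and Egln3 lower among 32 tested. Over all genes tested, 0.94% were called higher and 0.251% lower. Both siMbnl1/2 libraries were above both Dgcr8 KO libraries at 7 of the 32 (21.9%, beside 25.1%). They were below both at 9 (28.1%, beside 13.7%). P4ha2, which hydroxylates prolines of collagen, had 10.7 and 8.39 FPKM in siMbnl1/2 cells, against 4.94 and 5.19 FPKM in Dgcr8 KO cells (0.79 ± 0.114, adjusted p = 0.0317). Egln3, the prolyl hydroxylase that marks HIF for removal, had 8.46 and 9.36 FPKM in siMbnl1/2 cells, against 13.4 and 13.2 FPKM in Dgcr8 KO cells (-0.53 ± 0.0861, adjusted p = 0.0397). The groups were apart at both genes, and both calls were lost without any 1 library of the Dgcr8 KO, miR-294 or WT cells, and that of Egln3 without siMbnl1/2 replicate 1, with adjusted p up to 0.135 and 0.154.

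All 13 genes of the mitochondrial genome overlapped between the groups, with a median difference of 0.23 that was -0.00179 without Dgcr8 KO replicate 1 and 0.40 without Dgcr8 KO replicate 2. The 9 endoderm genes tested gave no call; 3 had both siMbnl1/2 libraries above both Dgcr8 KO libraries (33.3%, beside 25.1% for all genes tested), 0 had both below and 6 overlapped.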

How the data were processed

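Gene-level FPKM values of 8 mouse RNA-seq libraries were used as the authors deposited them. Reads were processed with STAR 2.5.0 and Cufflinks 2.2.1 on mm10, per the submitters' processing notes; the annotation release and the use of strand in counting are not given in the sources used here. The sample labels give polyA RNA and the series text total RNA. An FPKM is a share of its own library, so a few abundant RNAs can shift the rest. No counts were recovered from them and absolute depth is unknown.

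Group means over all 8 libraries were fitted to log2(FPKM + 1) with limma 3.58.1 in R 4.3.3 (trended, robust variance), for siMbnl1/2 minus Dgcr8 KO. P-values are two-sided and adjusted by Benjamini-Hochberg over the 12770 genes with a mean of at least 1 FPKM in the 4 libraries, and genes under 0.05 are called. The pseudocount of 1 understates changes of low genes. Lists are described by counts and medians, with no test.

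The members and the 36 gene lists were chosen with earlier results of these data known. Genes named by rule are Dgcr8, Mbnl1 to Mbnl3, the 8 largest called increases and 8 largest called decreases with symbols that are not clone, predicted, pseudogene (-ps) or small RNA names, and the 2 most changed called members of each list. Other genes in the text are list members, or were chosen after their values were seen. Gene types and exon overlaps come from GENCODE M21, matched by gene ID, promoters from RefSeq GRCm38.p6. Alternatives were another pseudocount, other filters, 2 scalings, other variance models, the replicate number as a block and each library left out.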

Additional observations from a re-analysis of the deposited data

How the results depend on the processing

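Of 152 calls (120 higher, 32 lower), a fit with no filter on low values gave 61, with 37 higher. Median-of-ratios scaling raised the lower calls to 78, and quantile normalization gave 242 in all, with 100 lower. The 4 libraries alone gave 4 calls (1 higher, 3 lower), and weights for group spread 2 (1 higher, 1 lower). With 1 library left out, the fits gave 18 to 683 calls, 3 to 489 higher and 3 to 194 lower. A pseudocount of 0.1, a mean of at least 1 FPKM over 8 libraries, a mean of at least 5 FPKM and plain variance moderation gave 143, 142, 154 and 143. The cause of these changes was not tested. With 1 library left out, the median difference of the actin and SRF list ran over 0.08 to 0.18, of the pluripotency list over 0.05 to 0.15, of the microRNA pathway over -0.11 to -0.06 and of the MBNL-regulated genes over -0.03 to 0.12. With the replicate number as a block, limma called 33 genes, 25 higher and 8 lower, all among the 152; the deviations of same-numbered siMbnl1/2 and Dgcr8 KO libraries had a correlation of -0.0487, so the numbers are not taken to pair them. No named gene turned its direction under any of these settings. Unknown absolute depth limits what can be said of genes of low level.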

Other observations

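Of 10 genes with Anxa symbols (annexins, which bind membranes and calcium) tested, 3 were called higher and none lower, and of 6 with S100 symbols (calcium-binding proteins) 2 were called higher and none lower, beside 0.94% of all genes tested called higher. Both siMbnl1/2 libraries were above both Dgcr8 KO libraries at 7 of the 10 and 5 of the 6, beside 25.1% of all genes tested. These families and the genes below were chosen after their values were seen, so their counts are a description. Anxa8 had 2.56 and 2.17 FPKM in siMbnl1/2 cells, against 0.429 and 0.516 FPKM in Dgcr8 KO cells (limma, adjusted p = 0.0124). Anxa3 had 51.0 and 46.4 FPKM in siMbnl1/2 cells, against 29.2 and 29.7 FPKM in Dgcr8 KO cells (adjusted p = 0.0144), and Anxa2 had 54.6 and 53.4 FPKM, against 39.9 and 38.8 FPKM (adjusted p = 0.0311). S100a6 had 106 and 98.7 FPKM in siMbnl1/2 cells, against 60.4 and 59.6 FPKM in Dgcr8 KO cells (adjusted p = 0.0144), and S100a13 had 17.8 and 15.0 FPKM, against 7.28 and 7.37 FPKM (adjusted p = 0.0155). Lgals3, galectin-3, had 80.8 and 56.6 FPKM in siMbnl1/2 cells, against 34.3 and 31.0 FPKM in Dgcr8 KO cells (adjusted p = 0.0318). The groups did not overlap at any of these 6 genes. In WT cells S100a13, Lgals3, Anxa3, Anxa2 and S100a6 were below the Dgcr8 KO cells, with Lgals3 at 16.1 and 17.2 FPKM. In miR-294 cells Lgals3 (49.9 and 49.4 FPKM), Anxa8 (0.628 and 0.545 FPKM) and S100a6 (60.7 and 68.0 FPKM) were above both Dgcr8 KO libraries. Anxa3, Anxa2 and S100a13 were below both there. All 6 lost the call without Dgcr8 KO replicate 2, and Anxa8 and S100a6 kept it without each of the other 7. S100a13 also lost it without Dgcr8 KO replicate 1 or either miR-294 library, Anxa3 without any 1 miR-294 or WT library, and Anxa2 and Lgals3 without any 1 library of the Dgcr8 KO, miR-294 or WT cells.

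Of 18 genes with Atg symbols (autophagy factors) tested, chosen in the same way, 3 were called higher and none lower. Over all genes tested, 0.94% were called higher and 0.251% lower. Both siMbnl1/2 libraries were above both Dgcr8 KO libraries at 11 of the 18, beside 25.1% of all genes tested. They were below both at none, beside 13.7%. These counts too are a description. Atg14, a subunit of the kinase complex that starts autophagosomes, had 18.8 and 18.1 FPKM in siMbnl1/2 cells, against 12.5 and 11.7 FPKM in Dgcr8 KO cells (limma, adjusted p = 0.0202). Atg13 had 26.4 and 27.1 FPKM in siMbnl1/2 cells, against 19.3 and 18.9 FPKM in Dgcr8 KO cells (adjusted p = 0.029). Atg4b, a protease of the same pathway, had 60.2 and 75.04 FPKM in siMbnl1/2 cells, against 44.8 and 38.9 FPKM in Dgcr8 KO cells (adjusted p = 0.0448). Calcoco2, the NDP52 receptor of autophagy, had 145 and 130 FPKM in siMbnl1/2 cells, against 97.8 and 102 FPKM in Dgcr8 KO cells (adjusted p = 0.0367). The replicates of Atg13 and Atg14 nearly coincided within each group. In miR-294 cells Atg14 had 21.5 and 22.3 FPKM and Atg13 23.3 and 23.6 FPKM, above both Dgcr8 KO libraries. Atg4b had 31.0 and 30.9 FPKM there and Calcoco2 45.4 and 45.1 FPKM, below both Dgcr8 KO libraries. A part of transfection itself in these increases was not tested. The 4 calls were lost without Dgcr8 KO replicate 2 or any 1 miR-294 or WT library, and those of Atg13, Atg4b and Calcoco2 also without Dgcr8 KO replicate 1.

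Tmem92 (chr11:94777217-94782703, mm10) and the pseudogene entry Gm11543 (chr11:94828186-94828930, mm10), both on the minus strand of chromosome 11, were called together. Gm11543 had 9.40 and 6.34 FPKM in siMbnl1/2 cells, against 0.683 and 1.42 FPKM in Dgcr8 KO cells (limma, adjusted p = 0.0367). Both were higher in the first siMbnl1/2 library than in the second. Gm11543 did not pass in the weighted limma fit (adjusted p = 0.342). Its call was lost without siMbnl1/2 replicate 1 and without any 1 library of the Dgcr8 KO, miR-294 or WT cells.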
